A study of Mus musculus with 6 samples.

Results

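Genes that encode cytokine receptor chains of lymphoid progenitors were examined in bone marrow leukaemia cells that lacked, or carried, the microRNA miR-182. The 10 genes of this group, Il7r, Il2ra, Il2rg, Il3ra, Csf2rb, Csf2rb2, Kit, Flt3, Crlf2 and Il6st, were taken by symbol from the deposited table of 55487 genes, and each symbol stood for 1 gene there. All 10 had enough counts to test, among 14481 tested genes. The study modelled acute lymphoblastic leukaemia in mice, with a B-lineage disease driven by BCR-ABL (P190) and a T-lineage disease driven by Notch, and the libraries here came from cells sorted as GFP+ and B220+. B220 is a B-lineage form of the surface phosphatase CD45, and GFP positivity of the blood was followed from 3 weeks after bone marrow transplantation. There were 2 groups: wild type (WT, genotype label WT; replicates 1, 3 and 4) and knockout (KO, genotype label miR-182 KO; replicates 2, 3 and 4). Every library was labelled bone marrow, acute lymphoblastic leukemia and Day 0, and the transplanted mice were 6 to 8 weeks old. The labels name neither the strain nor the construct that carries GFP, and they do not say whether a library is 1 mouse or a pool.

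Cytokine receptors of early lymphocytes work as assembled chains. The product of Il7r binds interleukin-7 together with the common gamma chain encoded by Il2rg, and binds TSLP together with the product of Crlf2. The product of Il2ra, CD25, is the high-affinity subunit of the interleukin-2 receptor and marks a pre-B stage in mouse marrow. Il3ra and the common beta chains Csf2rb and Csf2rb2 make the interleukin-3 receptor, and Csf2rb also serves GM-CSF and interleukin-5, while the beta chain encoded by Csf2rb2 exists in mice and binds interleukin-3 alone. Il6st encodes gp130, the shared chain of the interleukin-6 family. Kit and Flt3 are receptor tyrosine kinases of stem and progenitor cells. The chains without kinase activity signal through JAK kinases and STAT transcription factors, and BCR-ABL activates the same STAT5 arm.

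The microRNA deleted in the KO group is shown first, because its seed sets which messages it can pair with. Capitals mark bases 2 to 8, the seed, of the mature strand (RefSeq, GRCm38.p6, chromosome 6 from 30165962 to 30165986, minus strand):
mmu-miR-182-5p: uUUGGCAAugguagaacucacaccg
Among the longest annotated 3′ UTRs of the 10 receptor genes, 1 held the complementary site TTGCCAA, that of Il6st, and 9 held none. The share was 10% of these genes, against 11.9% of the 11972 tested genes whose 3′ UTR is annotated. The Il6st site, on chromosome 13 from 112506182 to 112506188 (plus strand, GRCm38), began 1737 bases after the stop codon of a 5641-base 3′ UTR and is shown with its flanks, the site in capitals:
Il6st site: ccagcctggaaTTGCCAAaatgccggaag
Il6st did not pass the test between genotypes, as given below.

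The promoters of Il7r and Csf2rb2 are shown because these genes moved in opposite directions and were the members with a window that held the STAT palindrome TTCNNNGAA. A promoter window (250 bases before to 50 after the start, RefSeq, GRCm38.p6) was found for 9 of the 10 genes, all but Csf2rb. Capitals mark matches on either strand to the STAT palindrome, to the PU.1 string GAGGAA, to the ETS string GGAAGT and to the GATA string GATAAG. PU.1 is itself an ETS factor, and PU.1 and ETS matches can overlap.
Il7r promoter (chr15:9529827-9530126, minus strand): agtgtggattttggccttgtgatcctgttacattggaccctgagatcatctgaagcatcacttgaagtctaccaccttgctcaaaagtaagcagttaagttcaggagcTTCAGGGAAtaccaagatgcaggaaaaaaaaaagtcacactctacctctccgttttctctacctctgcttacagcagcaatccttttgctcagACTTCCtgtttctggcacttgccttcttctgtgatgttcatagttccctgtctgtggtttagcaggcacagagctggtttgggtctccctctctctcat
Csf2rb2 promoter (chr15:78305672-78305971, minus strand): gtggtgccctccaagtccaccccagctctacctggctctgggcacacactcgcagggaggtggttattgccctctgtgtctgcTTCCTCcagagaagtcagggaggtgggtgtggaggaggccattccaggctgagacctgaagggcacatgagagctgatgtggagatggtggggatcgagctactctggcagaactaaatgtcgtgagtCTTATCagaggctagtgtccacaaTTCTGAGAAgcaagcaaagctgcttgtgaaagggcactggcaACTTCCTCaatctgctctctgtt
Counted from the first transcribed base as 0, the STAT match began at -142 in Il7r and at -15 in Csf2rb2. The ETS match began at -49 in Il7r and at 27 in Csf2rb2, where it overlapped a PU.1 match at 29. Of 32851 promoter windows of the same length, 8.3% held the STAT palindrome, 28.3% the PU.1 string, 23.8% the ETS string and 7.44% the GATA string. A match is a description of letters in a window, and no binding was measured. Of the 9 windows, 2 held the STAT palindrome, 5 the ETS string, 3 the PU.1 string and 1 the GATA string. The EBF palindrome, found in 0.904% of windows, was in that of Il2rg, and the FOXO string GTAAACA, found in 3.65%, was in none.

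The libraries held 17704382 to 29237035 counts, so 3 counts corresponded to between 0.0979 and 0.182 TMM-normalised CPM (counts per 1000000, scaled by the trimmed mean of M-values). B-lineage markers summed to similar levels, 8080 to 8430 CPM in WT and 7550 to 8570 CPM in KO. Several other lineages were not level: 14 neutrophil markers summed to 16600 to 40500 CPM in WT and 1360 to 6910 CPM in KO, 10 monocyte and macrophage markers to 1480 to 4500 and 276 to 691 CPM, 8 mast cell and basophil markers to 171 to 465 and 12 to 47.9 CPM, and 7 T cell markers to 51.5 to 110 and 11.9 to 16.5 CPM. Single genes carried most of some sums, Lyz2 for monocytes, Hdc for mast cells and basophils and Lck for T cells, and without Lck the 6 other T cell markers summed to 4.58 to 31 CPM in WT against 2.45 to 2.82 CPM in KO. Of NK cell markers 3 of 4 tested fell (sums of 50.2 to 87.4 and 5.64 to 7.38 CPM). Klrb1c alone gave 43.2 to 56.8 CPM of the WT sums. Without Klrb1c the 5 other NK cell markers summed to 7.05 to 30.6 CPM in WT and 3.87 to 6 CPM in KO. Erythroid markers (0 of 3 tested passed, 12.3 to 107 and 41.9 to 51.3 CPM) and dendritic cell markers (0 of 5 tested passed, 6.39 to 34.2 and 6.69 to 11.3 CPM) overlapped between the genotypes. No marker of these lists was at 0 in all libraries. The leading heavy-chain V segment was Ighv5-16 in every WT library and Ighv2-5 in every KO library, so a difference between genotypes and one between leukaemias cannot be told apart. Fold changes are given as log2 of KO relative to WT, with a standard error (SE), from the edgeR quasi-likelihood test with Benjamini-Hochberg adjustment over the 14481 genes. In these bulk samples, fewer cells of a type and less RNA per cell cannot be told apart.

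In KO the message of the interleukin-7 receptor chain was higher, while those of CD25 and all 3 chains of the interleukin-3 receptor were lower. Of the 10 genes, 1 rose (Il7r), 4 fell (Il2ra, Csf2rb2, Csf2rb and Il3ra) and 5 did not pass (Il2rg, Kit, Flt3, Crlf2 and Il6st). The Il3ra call was lost in 6 of 16 alternative settings, and those of Il7r, Il2ra, Csf2rb and Csf2rb2 in 1 each. Over all tested genes 52.5% passed, 23.9% as higher and 28.5% as lower in KO, so 5 of 10 is a share near the background. These shares are also the background for the counts of the other gene lists below. The median log2 fold change of the 10 genes was -0.32, against 0 over all tested genes. The libraries of the genotypes did not overlap for 6 of the 10 genes, against 64.0% of all tested genes.

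**Figure D1:**
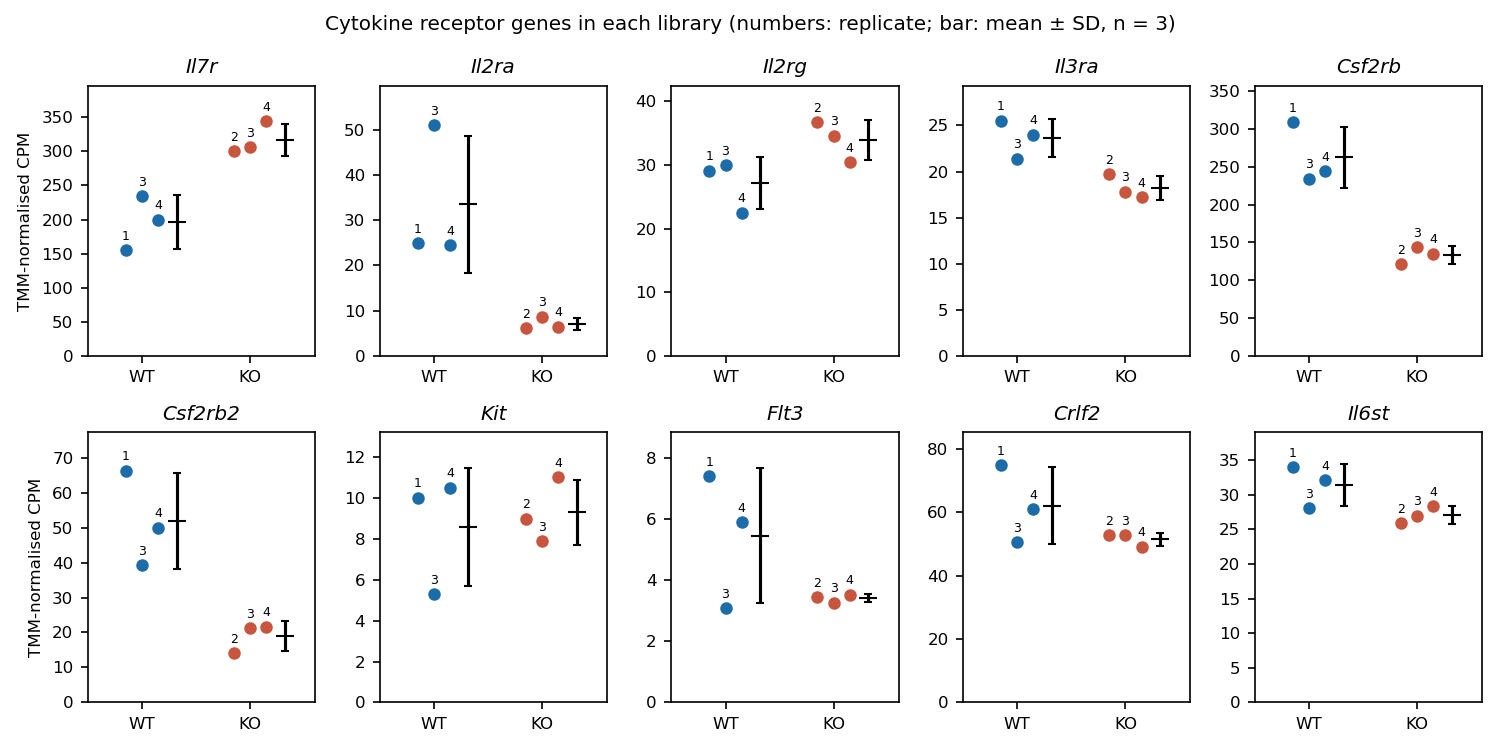
TMM-normalised CPM of the 10 receptor genes (y axes, each from 0) in 3 WT and 3 KO libraries, with replicate numbers beside the points and the mean ± SD beside each group. Il7r stands higher in KO, Il2ra, Il3ra, Csf2rb and Csf2rb2 stand lower, and WT replicate 3 is the lowest WT library for Kit, Flt3, Crlf2 and Il6st.

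Il7r was the most abundant of the receptor messages in KO and the single one that rose. Its gene lies on chromosome 15 from 9505788 to 9530176 (minus strand, GRCm38). The WT libraries stood at 155, 234 and 200 CPM in replicates 1, 3 and 4, and the KO libraries at 300, 306 and 344 CPM in replicates 2, 3 and 4. Every KO library was above every WT library, and the WT libraries were spread more widely. The means were 196 ± 39.9 CPM in WT and 317 ± 23.6 CPM in KO (SD, n = 3), a rise of 1.61-fold (log2 0.69, SE 0.15, adjusted p = 0.00844). Among WT libraries Il7r was lowest in replicate 1, which had the highest neutrophil marker sum. Among KO libraries the order was the opposite, with Il7r highest in replicate 4, where the neutrophil marker sum was also highest.

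The partners of the interleukin-7 receptor chain did not pass. Il2rg, on chromosome X from 101264378 to 101268255 (minus strand), had WT libraries at 29.1, 29.9 and 22.5 CPM and KO libraries at 36.7, 34.6 and 30.4 CPM. The 2 groups did not overlap, by a margin of 29.9 to 30.4 CPM, and the log2 fold change of 0.32 (SE 0.13) missed the threshold (adjusted p = 0.0822). It passed with upper-quartile factors (0.37, adjusted p = 0.0477), which also moved the median of all tested genes from 0 to 0.06. It also passed with limma-voom sample quality weights (0.56, adjusted p = 0.00192) and without WT replicate 3 (0.40, adjusted p = 0.0497). Without WT replicate 4 it stood at 0.20 (adjusted p = 0.22), and with the level of neutrophil markers as a covariate at -0.06 (adjusted p = 0.937). The Y-linked gene Ddx3y had 0 counts in each WT library and 56, 109 and 184 counts in KO replicates 2, 3 and 4, while Xist had 15053 to 35432 counts in every library. The groups therefore differed in Y-linked reads, whose part in an X-linked gene such as Il2rg was not tested.

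Crlf2, the TSLP receptor chain on chromosome 5 from 109554709 to 109558993 (minus strand), had WT libraries at 74.8, 50.6 and 61 CPM and KO libraries at 52.7, 52.8 and 49.2 CPM. The KO libraries lay close together at the level of the lowest WT library. It differed by a log2 fold change of -0.27 (adjusted p = 0.143, SE 0.14). The gene passed as lower without WT replicate 3 (-0.39, adjusted p = 0.0171).

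Il2ra showed the widest difference of the 10 genes in size. It lies on chromosome 2 from 11642807 to 11693193 (plus strand). The WT libraries stood at 24.9, 51 and 24.5 CPM and the KO libraries at 6.16, 8.62 and 6.43 CPM. WT replicate 3 held about as much as both other WT libraries together, and the lowest WT library was still above the highest KO library. Mean levels were 33.5 ± 15.2 CPM in WT and 7.07 ± 1.35 CPM in KO, so that KO was 4.74-fold lower (log2 -2.24, SE 0.32, adjusted p = 0.00184). T cells can also carry CD25. The 7 T cell markers summed to 76.2, 110 and 51.5 CPM in the WT libraries and to 16.5, 13.5 and 11.9 CPM in the KO libraries, and Lck alone gave 45.2, 105 and 44 CPM of the WT sums. Without Lck the 6 other markers summed to 31, 4.58 and 7.55 CPM in WT and to 2.82, 2.45 and 2.68 CPM in KO, so that they were lowest among WT libraries in replicate 3, where Il2ra was highest. The part of those cells in the Il2ra level was not tested. The neutrophil marker sum was lowest among WT libraries in replicate 3, where Il2ra was highest.

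The common beta chains fell together. Csf2rb, on chromosome 15 from 78325752 to 78353847 (plus strand), had WT libraries at 309, 234 and 244 CPM and KO libraries at 121, 144 and 135 CPM. The groups were far apart, with 234 CPM the lowest WT value and 144 CPM the highest KO value. Its level went from 262 ± 40.6 to 133 ± 11.4 CPM, 1.97-fold lower in KO (log2 -0.98, SE 0.13, adjusted p = 0.00122). Csf2rb2, its neighbour on the same chromosome from 78282507 to 78305721 (minus strand), had WT libraries at 66.3, 39.2 and 50 CPM and KO libraries at 14, 21.3 and 21.6 CPM. It went from 51.8 ± 13.7 to 19 ± 4.32 CPM, 2.72-fold lower (log2 -1.44, SE 0.24, adjusted p = 0.0029).

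The common beta genes are similar in sequence, so reads that fit both can be assigned wrongly. Their longest coding transcripts aligned over 4628 bases with 91.1% identity, and the longest exact run they shared was 242 bases. Windows of 50 bases from Csf2rb occurred unchanged in Csf2rb2 transcripts in 18.4% of positions, and windows of 150 bases in 3.47%. How the authors assigned reads that fit both genes is unstated, so the value of either gene alone is uncertain. With both counts summed into 1 gene, an alternative added after seeing the data, the level went from 314 ± 53.9 to 152 ± 15.4 CPM (log2 -1.04, SE 0.14, adjusted p = 0.00137). Csf2rb2 took 17.7%, 14.3% and 17% of the pair's counts in the WT libraries, in replicate order, and 10.3%, 12.9% and 13.8% in the KO libraries. The exact 95% Clopper-Pearson interval of WT replicate 3 (13.5% to 15.2%), which covers counting error only, overlapped those of KO replicate 3 (12% to 13.9%) and KO replicate 4 (12.8% to 14.8%).

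Il3ra, the alpha chain that gives the interleukin-3 receptor its specificity, fell by less. It lies on chromosome 14 from 14346275 to 14356011 (plus strand). The WT libraries stood at 25.5, 21.4 and 24 CPM and the KO libraries at 19.7, 17.8 and 17.2 CPM. The groups did not overlap, but the gap between them was small. The log2 fold change was -0.37 (SE 0.11, adjusted p = 0.022), or 1.3-fold lower. That call did not survive the omission of WT replicate 1 (adjusted p = 0.0573), WT replicate 4 (0.072), KO replicate 3 (0.0752), nor of KO replicate 4 (0.0764), and with no filter on low counts (0.0748).

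Markers of myeloid cells, which also carry the common beta chain, were lower in KO as well. All 14 neutrophil markers fell (median log2 fold change -2.98), as did all 10 monocyte and macrophage markers (median -2.33) and all 7 tested mast cell and basophil markers (median -2.49). Neutrophil markers summed to 40500, 16600 and 29200 CPM in the WT libraries, the order in which Csf2rb, Csf2rb2 and Il3ra were also highest, lowest and between, and to 1360, 3250 and 6910 CPM in the KO libraries. Within KO, Csf2rb2 was lowest and highest in the same replicates as the marker sum. Csf2rb was highest in replicate 3, while the sum was highest in replicate 4. Il3ra was highest in replicate 2, where the marker sum was lowest. With neutrophil marker level added as a covariate, Csf2rb stood at -0.60 (adjusted p = 0.305), Csf2rb2 at -0.35 (adjusted p = 0.657), Il3ra at -0.46 (adjusted p = 0.436), Il7r at 0.62 (adjusted p = 0.405) and Il2ra at -2.93 (adjusted p = 0.0621). None of the 10 genes passed in that fit, in which 577 of all tested genes did, and genotype itself took 81.4% of the variance of the covariate. The part of myeloid cells in these receptor levels was not tested.

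**Figure D2:**
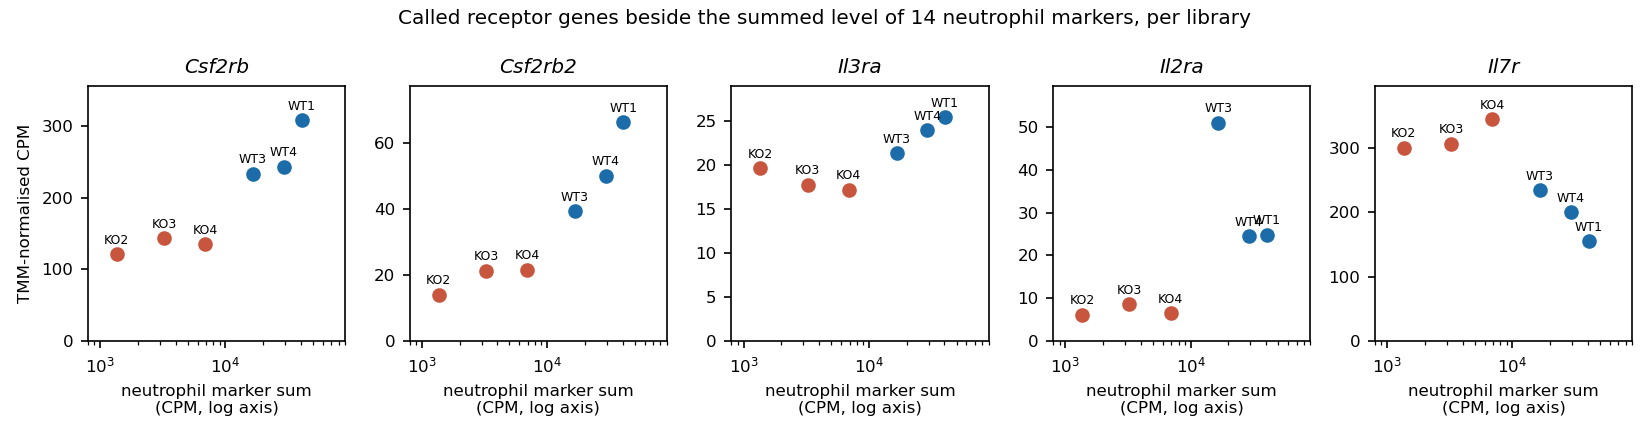
TMM-normalised CPM of the 5 receptor genes that passed (y axes, from 0) against the summed CPM of 14 neutrophil markers (x axes, log scale), 1 point per library. WT libraries (blue) sit at marker sums of 16600 to 40500 CPM and KO libraries (red) at 1360 to 6910 CPM, with no overlap, and Il2ra is highest in the WT library with the lowest marker sum of its group.

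The receptor tyrosine kinases of progenitors were low in abundance and did not pass. Kit, the stem cell factor receptor on chromosome 5 from 75574916 to 75656722 (plus strand), had WT libraries at 10, 5.28 and 10.5 CPM and KO libraries at 8.98, 7.88 and 11 CPM. The groups overlapped over most of their range, with a log2 fold change of 0.12 (adjusted p = 0.729, SE 0.27) whose sign turned to -0.14 both without WT replicate 3 and with sample quality weights. Flt3, the receptor for FLT3 ligand on chromosome 5 from 147330741 to 147400489 (minus strand), had WT libraries at 7.41, 3.08 and 5.89 CPM and KO libraries at 3.44, 3.26 and 3.52 CPM. WT replicate 3 was below all 3 KO libraries and the other WT libraries were above them. The log2 fold change came to -0.67 (adjusted p = 0.106, SE 0.31). Flt3 passed as lower without WT replicate 3 (-0.96, adjusted p = 0.00407). With Il2ra, Kit and Flt3 had the widest standard errors of the 10 genes. Stem and progenitor markers, of which 4 of 4 tested fell, summed to 193, 286 and 230 CPM in WT and 145, 125 and 93.1 CPM in KO, mostly from Mycn. Without Mycn the 6 other markers summed to 23.9, 5.9 and 10.6 CPM in WT, lowest in replicate 3 like Kit and Flt3, and to 2.72, 2.38 and 2.48 CPM in KO. Ly6a alone gave 19.9, 3.88 and 5.95 CPM of those WT sums. Unlike this sum, Kit was highest among WT libraries in replicate 4, and its genotypes overlapped. The part of cells with these markers in the Kit and Flt3 levels was not tested.

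Il6st, gp130, lies on chromosome 13 from 112464070 to 112510086 (plus strand) and had WT libraries at 34, 28.1 and 32.1 CPM and KO libraries at 25.9, 27 and 28.4 CPM. The groups met at one point, where KO replicate 4 was above WT replicate 3. It differed by a log2 fold change of -0.21 (adjusted p = 0.105, SE 0.10). The gene passed as lower without WT replicate 3 (-0.28, adjusted p = 0.0313). Without that library 9 of the 10 genes passed, 2 higher and 7 lower, with Kit the exception, and 8327 genes passed in all.

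Per kilobase of the longest coding transcript, Il7r (55.5 ± 11.3 CPM per kilobase), Csf2rb (53.5 ± 8.29) and Crlf2 (44.2 ± 8.66) led in WT, with library ranges that overlapped from each to the next. Below them came Il2rg (16.3 ± 2.44 CPM per kilobase), Csf2rb2 (10.9 ± 2.88), Il3ra (10.2 ± 0.905) and Il2ra (7.59 ± 3.44), again with overlaps between neighbours. Il6st (3.62 ± 0.344 CPM per kilobase) was clear of its neighbours, and Kit (1.64 ± 0.547) and Flt3 (1.49 ± 0.6) overlapped at the bottom. In KO the top of the order opened up: Il7r stood at 89.5 ± 6.68 CPM per kilobase, Crlf2 at 36.7 ± 1.45, Csf2rb at 27.2 ± 2.33, Il2rg at 20.3 ± 1.92 and Il3ra at 7.87 ± 0.563, with no overlap between neighbours. Csf2rb2 (4.0 ± 0.91 CPM per kilobase) then overlapped Il6st (3.13 ± 0.142), Kit (1.77 ± 0.302) overlapped Il2ra (1.6 ± 0.306), and Flt3 was last at 0.932 ± 0.0363. The authors' table gives Csf2rb a length of 2083 bases in place of 4900, and with it Csf2rb would lead in WT at 126 ± 19.5 CPM per kilobase and stand second in KO at 64 ± 5.48.

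**Figure D3:**
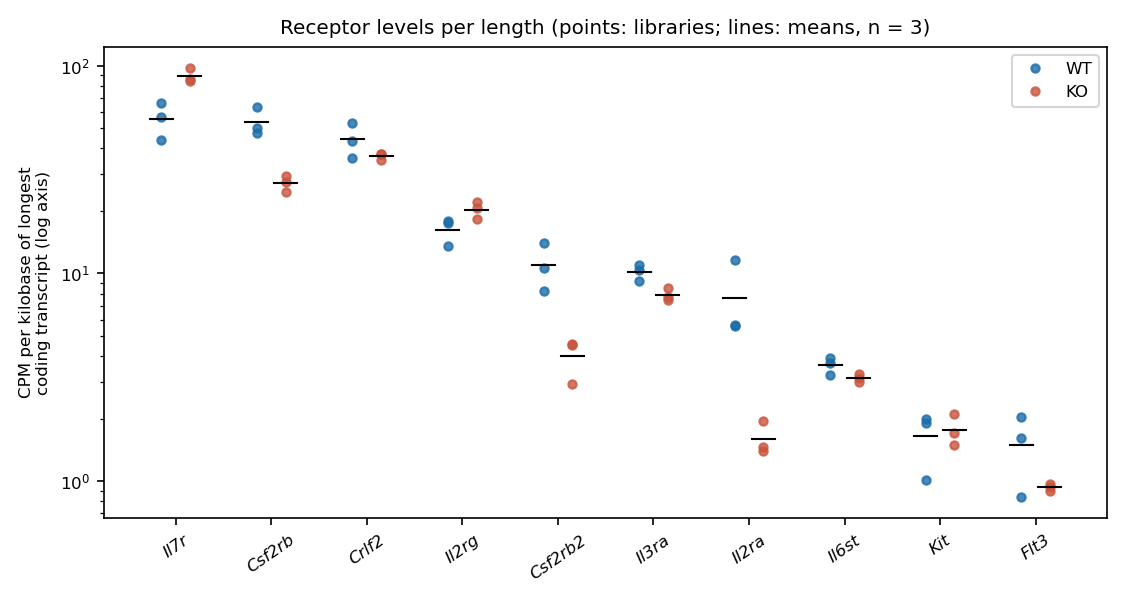
Levels of the 10 receptor genes in CPM per kilobase of the longest coding transcript (y axis, log scale), ordered by the WT mean, with 1 point per library and a line at each mean (n = 3). Il7r and Csf2rb lie together in WT, at 55.5 and 53.5, and apart in KO, at 89.5 and 27.2.

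Most tested chains that pair with the common gamma, common beta and gp130 chains fell. Of the 5 gamma-chain partners 1 rose and 4 fell (median log2 fold change -1.94). Il9r, the interleukin-9 receptor, had 16, 5 and 5 counts in WT and rose from 0.492 ± 0.416 to 10.5 ± 2.35 CPM (log2 4.47, SE 0.47, adjusted p = 0.000549). It passed in all 16 alternatives, the neutrophil covariate included (3.96, adjusted p = 0.0464). Il4ra fell from 130 ± 30.9 to 33.7 ± 4.8 CPM (-1.94, SE 0.19), Il21r from 33.1 ± 8.53 to 5.48 ± 1.91 CPM (-2.58, SE 0.28) and Il15ra from 14.9 ± 1.1 to 7.69 ± 1.64 CPM (-0.95, SE 0.17), with adjusted p of 0.000382, 0.000663 and 0.00384. Il2rb, outside the rule for named genes and chosen after its values were seen, fell by 2.18 (SE 0.67, adjusted p = 0.0296) from 35.8, 5.55 and 8.92 CPM in WT to 3.49, 3.8 and 3.75 CPM in KO. That call did not survive the omission of KO replicate 2 (adjusted p = 0.083), KO replicate 3 (0.0848), nor of KO replicate 4 (0.0793).

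Csf2ra, the GM-CSF receptor chain that pairs with Csf2rb, fell by 1.38 (SE 0.28, adjusted p = 0.00614), from 182 ± 68.4 to 69.7 ± 13 CPM, and was at -0.22 under the neutrophil covariate (adjusted p = 0.851). The other beta-chain partner, Il5ra, was too low to test. Among 4 tested gp130 partners there was 1 that rose and 1 that fell, and 2 missed the threshold (median -0.42). Il6ra fell by 1.85 (SE 0.23, adjusted p = 0.00109), from 68.7 ± 21 to 19 ± 2.12 CPM. Lifr, the LIF receptor, rose from 10.3 ± 4.74 to 26.4 ± 10.5 CPM (1.34, SE 0.39, adjusted p = 0.0236), and was at 0.09 under the neutrophil covariate (adjusted p = 0.965). That call did not survive the omission of WT replicate 1 (adjusted p = 0.0606), WT replicate 4 (0.0801), KO replicate 2 (0.0508), nor of KO replicate 3 (0.0775). Il11ra1 (-0.58; 0.05 with the neutrophil covariate) and Il27ra (-0.26) did not pass, with adjusted p of 0.0915 and 0.0922.

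**Figure D4:**
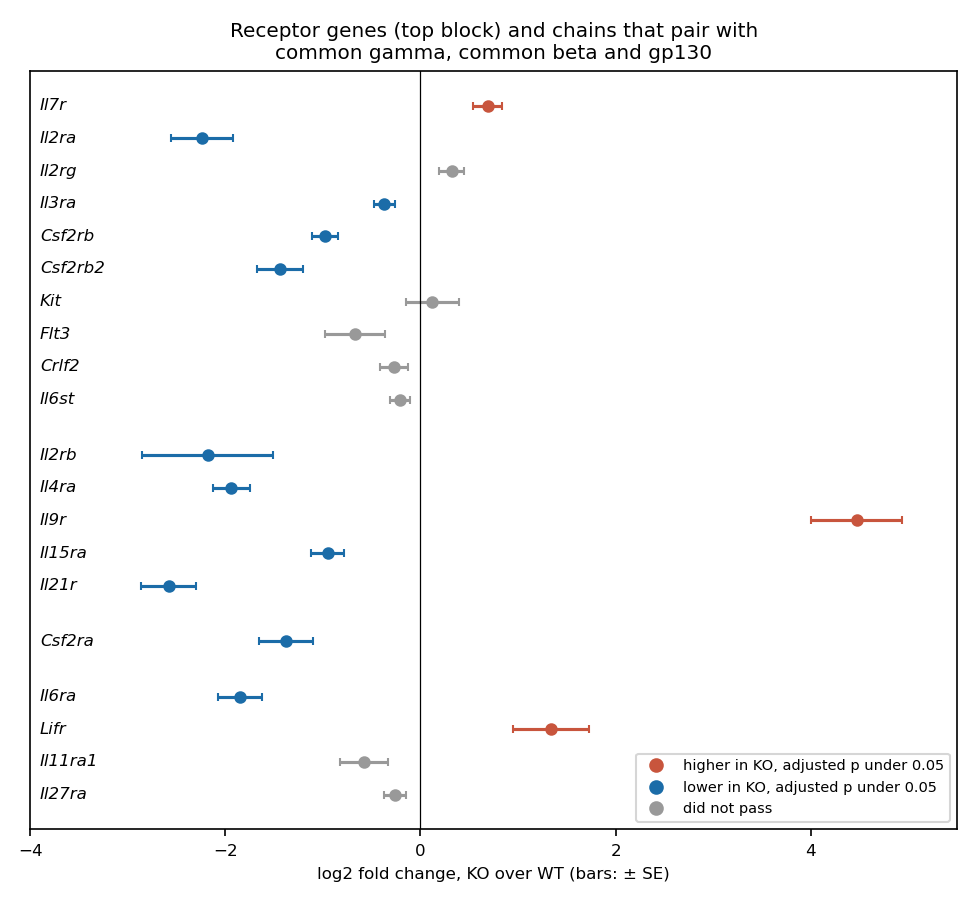
Log2 fold changes, KO over WT, of the 10 receptor genes (top block) and of the tested chains that pair with common gamma, common beta and gp130 (lower blocks), with bars of ± 1 SE and colours by adjusted p. Il2ra at -2.24, Il21r at -2.58 and Il9r at 4.47 are the extremes, and 5 of the 10 receptor genes are grey, which marks those that did not pass.

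Ligands of these receptors were mostly too low to test. Of 18 ligand genes 12 had too few counts to test, among them Il2, Il3, Il4, Il5, Il9, Kitl and Tslp, and 3 had 0 counts in all libraries. Of the 6 tested, 1 rose and 5 fell (median -1.08). Clcf1, a ligand of the gp130 family, rose from 20.4 ± 1.17 to 48.4 ± 9.72 CPM (1.24, SE 0.16, adjusted p = 0.0011). Osm, oncostatin M, fell by 2.78 (SE 0.50, adjusted p = 0.00415) from 204, 54.8 and 85.9 CPM in WT to 11.7, 16 and 22.2 CPM in KO. Il15 fell by 1.85 (SE 0.42, adjusted p = 0.00956) and Lif by 0.85 (SE 0.21, adjusted p = 0.0132), the latter call lost without KO replicate 2 (adjusted p = 0.0537). With the neutrophil covariate Clcf1 stood at 0.63 (adjusted p = 0.301), Osm at -0.71 (0.727), Il15 at -0.54 (0.817) and Lif at -0.76 (0.489). Il7 itself, chosen after its values were seen, was low, 1.17 ± 0.414 CPM for WT against 0.499 ± 0.0224 CPM for KO (-1.21, SE 0.31, adjusted p = 0.0157), and its call did not survive the omission of KO replicate 2 (adjusted p = 0.0591), nor of KO replicate 3 (0.0567).

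Downstream of the receptors, 4 of 8 JAK and STAT genes fell, 0 rose and 4 did not pass (median -0.22). The share that passed was near the 52.5% of all tested genes. Jak2, the kinase bound to the common beta chain, fell by 0.90 (SE 0.12, adjusted p = 0.00131) from 99.4 ± 13.6 to 53.4 ± 4.55 CPM. Stat3 fell by 0.68 (SE 0.15, adjusted p = 0.00866) and Stat5b by 0.29 (SE 0.10, adjusted p = 0.0392). With the neutrophil covariate Jak2 stood at -0.84 (adjusted p = 0.193) and Stat3 at -0.35 (0.665). The Stat5b call was lost in 9 of 16 alternatives, among them the omission of any library other than WT replicate 3 (adjusted p = 0.0761 to 0.171). Of 10 STAT-induced genes and feedback genes 2 rose, 4 fell and 4 did not pass (median -0.11). Socs1, a JAK inhibitor, fell from 33.9 ± 3.93 to 11.6 ± 2.11 CPM (-1.55, SE 0.16, adjusted p = 0.000522), and fell in all 16 alternatives, the neutrophil covariate included (-1.96, adjusted p = 0.0294). Pim2, a survival kinase, rose from 21.3 ± 5.19 to 47.6 ± 7.55 CPM (1.16, SE 0.20, adjusted p = 0.00336), Pim3 fell by 0.49 and Bcl6, a repressor, fell by 2.24 (SE 0.44, adjusted p = 0.00566). With the neutrophil covariate Pim2 stood at 0.91 (adjusted p = 0.356), Pim3 at -0.36 (0.444) and Bcl6 at -0.17 (0.923). The rest of the list was named after its values were seen. Socs2, a classical STAT5 target, rose by 0.54 (SE 0.13, adjusted p = 0.0123) and stood at 0.17 with the neutrophil covariate (adjusted p = 0.799). Cish, another, stood at 0.19 (SE 0.29, adjusted p = 0.614), with a sign that turned without WT replicate 1 (-0.04) and with the neutrophil covariate (-0.83). Without WT replicate 3 Cish passed as higher (0.60, adjusted p = 0.0169). In the reported fit Mcl1 fell by 0.66 (SE 0.17, adjusted p = 0.0151). Pim1 (-0.27, adjusted p = 0.107), Socs3 (0.04, adjusted p = 0.899) and Bcl2l1 (0.05, adjusted p = 0.711) did not pass.

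Most adaptors and brakes of the receptors did not pass. Of 11 genes 2 rose, 2 fell and 7 did not pass (median -0.03), where 52.5% of all tested genes passed. Cbl, a ubiquitin ligase that removes activated KIT and FLT3, fell by 0.58 (SE 0.09, adjusted p = 0.00239), and its relative Cblb rose by 0.44 (SE 0.09, adjusted p = 0.00763). Ptpn6, the phosphatase SHP-1, fell by 0.57 (SE 0.10, adjusted p = 0.00335). Ptpn11, the phosphatase SHP-2, rose by 0.22 (SE 0.07, adjusted p = 0.027), a call that did not survive the omission of WT replicate 4 (adjusted p = 0.111), of KO replicate 2 (0.0514), of KO replicate 3 (0.071), nor of KO replicate 4 (0.0628).

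Transcription factors known to act on the receptor genes moved both ways. Among 16 tested, 5 rose and 5 fell, and 6 missed the threshold (median -0.03). Over all tested genes 23.9% rose and 28.5% fell. Ikzf3, the lymphoid zinc finger factor Aiolos, rose from 107 ± 13.4 to 346 ± 37.6 CPM (1.70, SE 0.12, adjusted p = 0.000135), and passed in all 16 alternatives. Its relative Ikzf1 rose by 0.48 (SE 0.07, adjusted p = 0.00227). Gata3, a T-lineage factor, fell by 4.59 (SE 0.39, adjusted p = 0.000246) from 4.37, 5.59 and 4.63 CPM in WT to 0.0478, 0.248 and 0.261 CPM in KO. Foxo3 fell by 1.05 (SE 0.10, adjusted p = 0.000355). Spi1, which encodes PU.1 and was chosen after its values were seen, fell by 1.17 (SE 0.20, adjusted p = 0.00308), from 255, 144 and 196 CPM in WT to 82.7, 85.5 and 95.9 CPM in KO. With the neutrophil covariate Ikzf1 stood at 0.466 (adjusted p = 0.23), Gata3 at -4.1 (0.0571), Foxo3 at -0.795 (0.115) and Spi1 at -0.513 (0.551).

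Most other type I receptors that could be tested fell. Among 5 tested, 1 rose and 3 fell, and 1 missed the threshold (median -2.25). Csf3r, the G-CSF receptor of neutrophils, fell by 3.42 (SE 0.63, adjusted p = 0.00433) and stood at -0.33 with the neutrophil covariate. Il13ra1 fell by 2.59 (SE 0.39, adjusted p = 0.0022) and Il12rb1 by 2.25 (SE 0.34, adjusted p = 0.00231). Il12rb2 rose by 1.32 (SE 0.47, adjusted p = 0.0499) with overlapping groups, and did not keep its call on omission of WT replicate 3 (adjusted p = 0.102), WT replicate 4 (0.14), KO replicate 3 (0.123), nor of KO replicate 4 (0.127).

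Most neighbours of the receptor genes did not pass. Of 36 different genes that were the nearest tested neighbours, 2 on each side of a receptor gene, 5 rose, 8 fell and 23 did not pass. Over all tested genes 52.5% passed, 23.9% as higher and 28.5% as lower, so these neighbours passed less often than tested genes in general. Several neighbours, some that passed and some that did not, had few counts. The part of low counts in the lower share was not tested. The common beta genes lie beside other genes that fell: Ncf4, a subunit of the phagocyte NADPH oxidase 19.9 kilobases from Csf2rb2, went from a mean of 225 to 76.2 CPM (-1.56, SE 0.16, adjusted p = 0.000506), and Tst, 45.7 kilobases from Csf2rb, fell by 0.93 (SE 0.28, adjusted p = 0.0277). The Tst call did not survive the omission of WT replicate 1 (adjusted p = 0.072), WT replicate 4 (0.08), KO replicate 2 (0.0915), nor of KO replicate 3 (0.0954), and its sign turned with the neutrophil covariate (0.26, adjusted p = 0.813). Around Il2ra, Il15ra (-0.95), Fbh1 (-0.45, adjusted p = 0.0104) and Pfkfb3 (-0.40, adjusted p = 0.0109) fell, each by less than Il2ra. The Pfkfb3 call was lost on omission of KO replicate 2 (-0.30, adjusted p = 0.0689). Beside Il3ra, Slc4a7, 346 kilobases away, rose by 1.06 (SE 0.09, adjusted p = 0.000235), the opposite direction.

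The protein-coding genes most like each receptor gene in profile over the 6 libraries, by the root mean square difference of centred log2(CPM + 1) values, were Tada2a (0.061) and Nars2 (0.064) for Il7r, and Jade2 (0.18) and Padi2 (0.24) for Il2ra. Tpst2 (0.048) and Arrdc2 (0.058) were nearest to Csf2rb, Ubtd1 (0.058) and Pitpnc1 (0.069) to Csf2rb2, and E130308A19Rik (0.029) and Tmem134 (0.033) to Il3ra. The nearest profiles to Il2rg were Plcxd2 and Ly6e (0.048 each), to Crlf2 Prdm2 (0.021) and Ap3m2 (0.03), and to Il6st Ccnl2 and Hltf (0.024 each). The search covered 8925 genes for each of these 8 receptor genes, and Kit and Flt3, with means under 10 CPM, were not searched. No gene came as close to Il2ra as to the other 7. The distance tends to be larger for a gene whose levels vary more, and Il2ra had the widest difference between genotypes. Distances are therefore not comparable between receptor genes.

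In the authors' deposited table, made with DESeq2, the FDR was below 0.05 for the same 5 of the 10 genes. The deposited table's log2 fold changes were 0.71 for Il7r, -2.23 for Il2ra, -0.95 for Csf2rb, -1.42 for Csf2rb2 and -0.36 for Il3ra. Exact permutation tests over the libraries, 2-sided, gave p = 0.1, the smallest that 3 against 3 allow, for each of the 6 genes whose groups did not overlap, and 0.2 to 0.8 for the other 4.

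**Figure D5:**
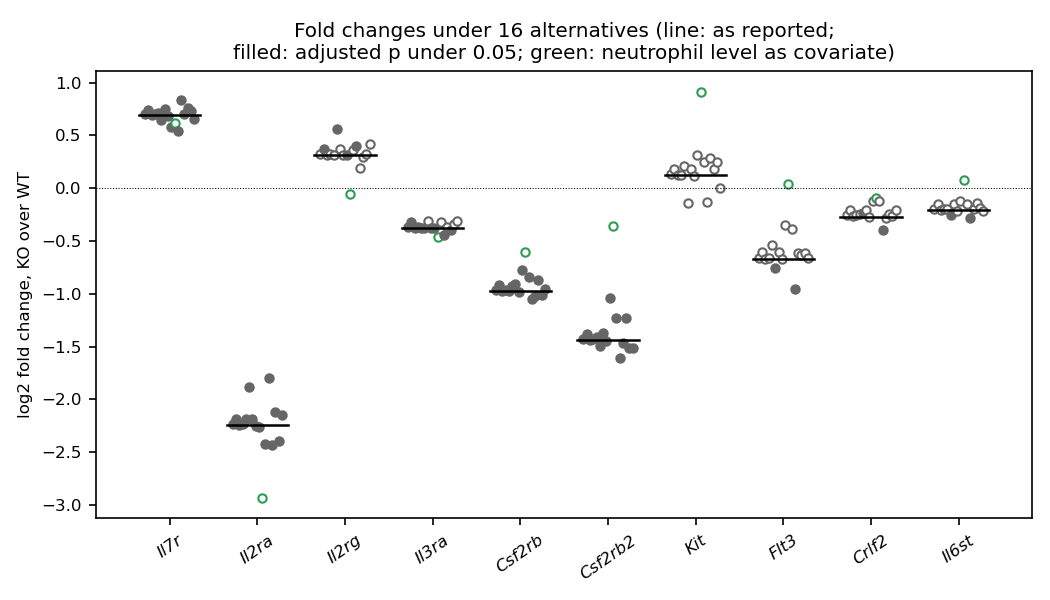
Log2 fold changes of the 10 receptor genes, KO over WT (y axis), under 16 alternative settings, with the reported value as a line, filled points where the adjusted p was under 0.05 and green for the fit that had neutrophil marker level as covariate. Il7r, Il2ra, Csf2rb and Csf2rb2 keep their direction in all 16 and their call in 15.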

How the data were processed

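Total RNA of sorted cells was sequenced after SMARTer mRNA-seq library preparation, per the labels' protocols. The authors deposited raw counts per gene, which summed to 17704382 to 29237035 per library, with an exon length per gene. Build GRCm38 (mm10) comes from the submitters' processing notes, and no source used here names the aligner or counter. The authors also deposited DESeq2 log2 fold changes, fold changes as a ratio, p-values and FDR values, used for comparison only.

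Genes were kept by edgeR filterByExpr (minimum count 10), scaled by TMM factors (0.932 to 1.05) and tested with the edgeR 4.0.16 quasi-likelihood test, WT against KO, with Benjamini-Hochberg adjustment and a threshold of 0.05. The fit was tested on simulated data in which far fewer genes changed than passed here. That test does not give the share of false calls in these data. CPM means are given with the SD over 3 libraries. The labels do not say whether libraries are separate animals, so p-values measure the spread between these libraries, which may be technical. DESeq2 1.42.0, limma 3.58.1, other filters and scalings, a neutrophil marker covariate and single-library omissions were alternatives. Sequences were taken from RefSeq GRCm38.p6 tables and GENCODE M21 transcripts. Receptor genes and lists were chosen with earlier results of these data known. Named genes of a pathway list were up to 4 with the smallest p, with the 2 nearest tested neighbours on each side and the 2 most similar profiles of a receptor gene, and genes outside that rule are marked in the text. Groups of 3 libraries were not screened for outliers. Values of 1 gene that the naming rule selects are not reported here. Marker sums without the most abundant marker of a list were added after seeing the data.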

Additional observations from a re-analysis of the deposited data

How the results depend on the processing

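In 16 alternatives Il7r, Il2ra, Csf2rb and Csf2rb2 kept their direction, and each kept its call in all but the fit that had neutrophil marker level as its covariate. That fit called 577 genes (218 higher, 359 lower in KO) and 0 of the 10 receptor genes (0 higher, 0 lower). It called 3 of the pathway genes, Il9r, Socs1 and Ikzf3, against 42 in the reported fit. Signs turned in it for Il2rg (-0.0576), Flt3 (0.0417), Il6st (0.0762), Il11ra1 (0.0474), Tst (0.261) and Cish (-0.832); the covariate is largely set by genotype. Limma-voom with sample quality weights called 9 receptor genes (2 higher, 7 lower) and turned Kit to -0.144. Over all genes it called 9811, against 7599 in the reported fit. Upper-quartile factors called 2 receptor genes as higher, and over all genes 4011 as higher, against 3466 in the reported fit. Over single-library omissions Kit ranged from -0.135 (without WT replicate 3) to 0.288 and Cish from -0.0372 (without WT replicate 1) to 0.604. The cause of these changes was not tested.

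Leaving out 1 library at a time gave 5847 to 8327 genes called (2396 to 3848 higher, 3218 to 4479 lower), 4 to 9 receptor genes (1 to 2 higher, 3 to 7 lower) and 31 to 45 pathway genes. WT and KO share replicate numbers 3 and 4 only. Deviations from the group means correlated at 0.0523 for number 3 and 0.211 for number 4, so the numbers were not taken to pair the libraries. With the replicate number as a block 6767 genes and 6 receptor genes passed, 2 of them higher, Il2rg (0.318, adjusted p = 0.0465) being added, and Cish stood at -0.0378. Precision is limited by 3 libraries a group.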
